A study of Mus musculus with 6 samples.

Results

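The genes described here carry glucose into the cell and through glycolysis, lactate export, the gate of pyruvate into the mitochondrion and the pentose phosphate pathway. They were 36 listed symbols, taken by name from a table of 22099 genes, and include the hypoxia regulator Hif1a and its target Bnip3. Of the 36 genes, 33 reached 1 RPKM in at least 2 of the 6 libraries and were tested among 11345 genes. The genes below that level were Pgam1 (at most 0.9 RPKM), Ldhb (at most 0.5) and Eno2 (at most 0.4). RPKM is a read count scaled to transcript length and library size, which puts genes on 1 scale except where reads are shared with copies in other genes.

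The 6 libraries came from whole bone marrow of C57BL/6 mice that was transduced with a retrovirus for BCR-ABL-p185, an oncogenic fusion kinase, followed by an IRES and the marker YFP. The cultures were grown for 14 days, and the labels call the cells BCR-ABL+ transformed proB-ALL, a leukaemia of B cell precursors. Marrow was wt, Ikaros_ZnF1-/- or Ikaros_ZnF4-/-, with 2 replicates each. The mutants, called ZnF1-/- and ZnF4-/- here, lack zinc finger 1 or 4 of Ikaros, a DNA-binding regulator of lymphoid cells. Nothing in the labels says that replicates came from separate mice, so p-values measure the spread between libraries, which may be technical. All 3 groups carry BCR-ABL, so no library shows cells without the oncogene, and the labels name no sorting of the transduced cells.

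Glucose enters through the SLC2A transporters, is trapped by hexokinases and is split and oxidised to pyruvate by the enzymes from phosphofructokinase to pyruvate kinase. Lactate dehydrogenase turns pyruvate into lactate, which leaves through the SLC16A transporters, while pyruvate dehydrogenase sends pyruvate to the mitochondrion unless PDK kinases switch it off. The pentose phosphate enzymes draw glucose 6-phosphate off for NADPH and ribose. In B cell precursors Ikaros is known as a brake on glucose uptake and use, and leukaemic B cells depend on this supply of energy.

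The summed RPKM of the 36 genes was 0.43% to 0.68% of all RPKM per library. B lineage markers (11 genes, among them Cd79a) summed to 2526 to 3673 RPKM. The 10 monocyte and macrophage markers summed to 961.9 and 1032.8 RPKM in ZnF1-/-, against 321.2 to 386.9 in the other 4 libraries, and 10 stromal and endothelial markers to 264.3 and 151.6 against 70.6 to 79.4. The 10 granulocyte markers stood at 1625.9 RPKM in ZnF1-/- replicate 2 and 531.7 in wt replicate 1, and at 0.5 to 53.9 elsewhere. Erythroid markers reached at most 14.3 RPKM and T and NK cell markers at most 2.3, with 4 of the 8 T and NK cell markers at 0 in every library, Cd3e among them. In such bulk samples, fewer cells of a type and less RNA per cell cannot be told apart. The 3 group comparisons share libraries, so their values are not independent of each other.

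Several enzymes that most cells make in bulk were listed at very low values. Gapdh, which oxidises glyceraldehyde 3-phosphate, stood at 1.9 and 1 RPKM in wt, 1.2 and 0.9 in ZnF1-/- and 1.8 and 1.3 in ZnF4-/-. The mutase gene Pgam1 reached at most 0.9 RPKM, and the kinase gene Pgk1 lay between 6.6 and 9 RPKM. Eno1, the main enolase, stood at 3.6, 3.2 and 4.3 RPKM in the replicate 1 libraries of wt, ZnF1-/- and ZnF4-/-, and at 0.1, 0 and 0.2 in the replicate 2 libraries. Gapdh, Pgk1 and Eno1 passed in no comparison, and Pgam1 was not tested. All 4 genes share sequence with other genes, and its part in the low values was not tested. In the mouse annotation GENCODE M21, 83.7% of the 36-base windows of the Gapdh transcript also occurred in transcripts of other genes. The share was 75.9% for Eno1, 68.2% for Pgk1 and 42% for Pgam1. For Gapdh, 71 other genes, 67 of them pseudogenes, matched over at least 50% of the transcript at 95% identity or more, against 3 for Eno1, 2 for Pgk1 and 0 for Pgam1. Bnip3 (71.5%), Pfkfb2 (51.2%), Pkm2 (45.6%), Ldhb (37.4%) and Gpi1 (33.3%) also shared many windows, while Hk2, Hk3, Pfkm, Pfkfb3, Slc16a1, Pgd and Tkt shared none. The sources used here do not say how reads that fit several places were counted.

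**Figure D1:**
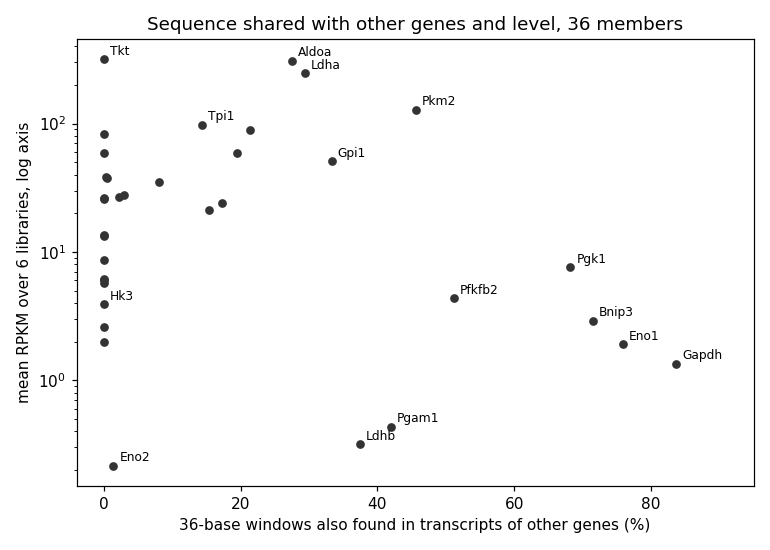
Mean RPKM over the 6 libraries (vertical, log axis) against the share of 36-base windows of each member's transcript that also occur in transcripts of other genes (horizontal, percent). Each point is 1 of the 36 genes. Gapdh, Eno1, Bnip3 and Pgk1, the members with the largest shared parts, all lie under 10 RPKM. Tkt, among the most abundant members, shares none. Pkm2 (45.6%), Ldha (29.4%) and Aldoa (27.5%) share windows and do not fall below 73.4 RPKM in any library. Eno2 (1.4%) reaches at most 0.4 RPKM.

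Replicate 1 and replicate 2 libraries also differed from each other in every group. The mean over the 3 replicate 1 libraries was 37 times that of replicate 2 for Eno1, 4.2 times for Pgam1, 2.96 times for Aldoa, 1.63 times for Gpi1, 1.57 times for Ldha and 1.51 times for Tkt, and at the other end 0.636 times for Slc16a3. For Ldha the gap was wider in the shorter of its 2 RefSeq rows. That row, of 1631 bases, held 107.5, 61.1 and 89.1 RPKM in replicate 1 of wt, ZnF1-/- and ZnF4-/- but 1.8, 1 and 3.1 in replicate 2, whereas the row of 1824 bases held 217.3, 182.7 and 248.1 against 198.8, 137.6 and 233.3. For Aldoa both main rows were lower in replicate 2. Because this difference runs through all groups, each comparison is given from limma, a linear model test fitted on log2(RPKM + 1) over all 11345 genes, and again with the replicate number as a block, which compares same-numbered libraries.

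**Figure D2:**
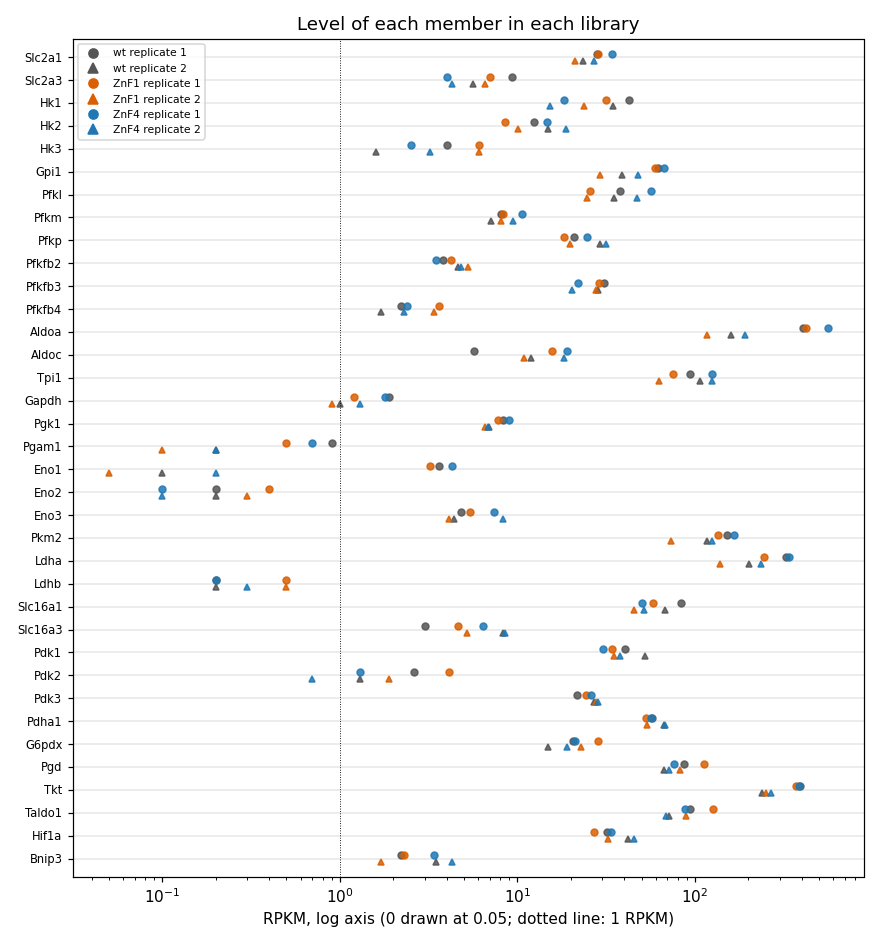
RPKM of the 36 genes (log axis, 0 drawn at 0.05) in the 6 libraries, with circles for replicate 1, triangles for replicate 2 and colours for the 3 groups. Tkt, Aldoa, Ldha and Pkm2 are the highest, and Eno1, Pgam1 and Aldoa show the widest gaps between circles and triangles.

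In wt cultures the most abundant members were the transketolase gene Tkt at 314.4 ± 109 RPKM (SD, n = 2), the aldolase gene Aldoa at 283.8 ± 175, Ldha at 262.7 ± 87.8 and the pyruvate kinase gene Pkm2 at 133.6 ± 24.1. The spread between replicates is wider than the gaps among Tkt, Aldoa and Ldha, so these 3 have no order. Next came Tpi1 at 100.6 ± 9.48, Taldo1 at 82.85 ± 16.1, Pgd at 76.6 ± 14 and Slc16a1 at 75.45 ± 11.2, each overlapping the next. One isozyme led most families. Among the listed isozymes, Ldha made up 99.6% to 99.9% of lactate dehydrogenase RPKM in all 6 libraries and Aldoa 91.3% to 98.6% of aldolase. Slc16a1 made up 85.8% to 96.5% of the 2 listed lactate transporters. Pfkfb3 made up 74.2% to 83.7% of Pfkfb2, Pfkfb3 and Pfkfb4 together. These PFKFB enzymes set the activator fructose 2,6-bisphosphate. Pfkfb1, which is outside the list and not counted in that share, stood at 1.8 to 3.6 RPKM.

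With limma, 0 of the 33 tested members passed in ZnF1-/- against wt, as did 0% of all genes. At an unadjusted p of 0.05 2 were higher and 4 lower (9.17% and 2.12% of all genes). With the block 3 were higher (G6pdx, Pfkfb4 and Taldo1) and 5 lower (Hk1, Hk2, Pfkl, Ldha and Slc16a1). These are 9.09% and 15.2% of members, against 10.4% and 2.88% of all genes. Lower in both replicate pairs were 16 members (48.5%, against 35.1% of all genes), and 9 were higher (27.3%, against 33.5%). Groups did not overlap for 3 members that were higher and 8 that were lower (18.3% and 12.7% of all genes). The median log2 fold change was −0.08, against −0.01 over all genes. It was 0.2 without the 2 libraries with most granulocyte transcripts, a fit that sets ZnF1-/- replicate 1 against wt replicate 2. Of the 8 members called with the block, 0 kept the call in every fit that left out 1 library.

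In ZnF4-/- against wt 0 of 33 members passed, beside 1.43% of all genes higher and 1.3% lower (2.72% in all). At an unadjusted p of 0.05 3 were higher and 4 lower (5.92% and 5.79% of all genes). The block gave 3 higher (Pfkl, Pfkm and Eno3) and 3 lower (Hk1, Pfkfb3 and Slc16a1), each 9.09% of members, a share near the 8.02% and 7.92% of all genes. Higher in both replicate pairs were 19 members (57.6%, against 42.5%), and 7 were lower (21.2%, against 31.1%). Without overlap, 6 were higher and 5 lower (17.8% and 13.8% of all genes). The median was 0.14, against 0.04 over all genes. Without wt replicate 2 it was −0.07, or 0.12 with the block. Of the 6 calls with the block, that of Hk1 alone was kept with each library left out in turn.

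Set against each other, ZnF4-/- exceeded ZnF1-/- in 1 member, Pfkl, without the block, and 0 were lower (1.61% and 3.75% of all genes, 5.37% in all). At an unadjusted p of 0.05 5 were higher and 5 lower (6.84% and 12.5% of all genes). The block called 11 higher and 7 lower, 33.3% and 21.2% of members, against 15.9% and 19.2% of all genes. The 11 were Slc2a1, Hk2, Pfkl, Pfkp, Aldoa, Tpi1, Eno3, Pkm2, Ldha, Hif1a and Bnip3. The 7 were Hk1, Pfkfb3, Pfkfb4, Pdk2, G6pdx, Pgd and Taldo1. Higher in ZnF4-/- in both pairs were 21 members (63.6%, against 41.2%), and 10 were lower (30.3%, against 34.8%). Without overlap, 12 were higher and 9 lower (21.7% and 21.8% of all genes). The median was 0.26, against 0.04 over all genes. Without ZnF1-/- replicate 2 it was 0.01, or 0.15 with the block. Of the 18 calls, those of Hk1, Hk2 and Pfkl were kept with the block and each library left out in turn.

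**Figure D3:**
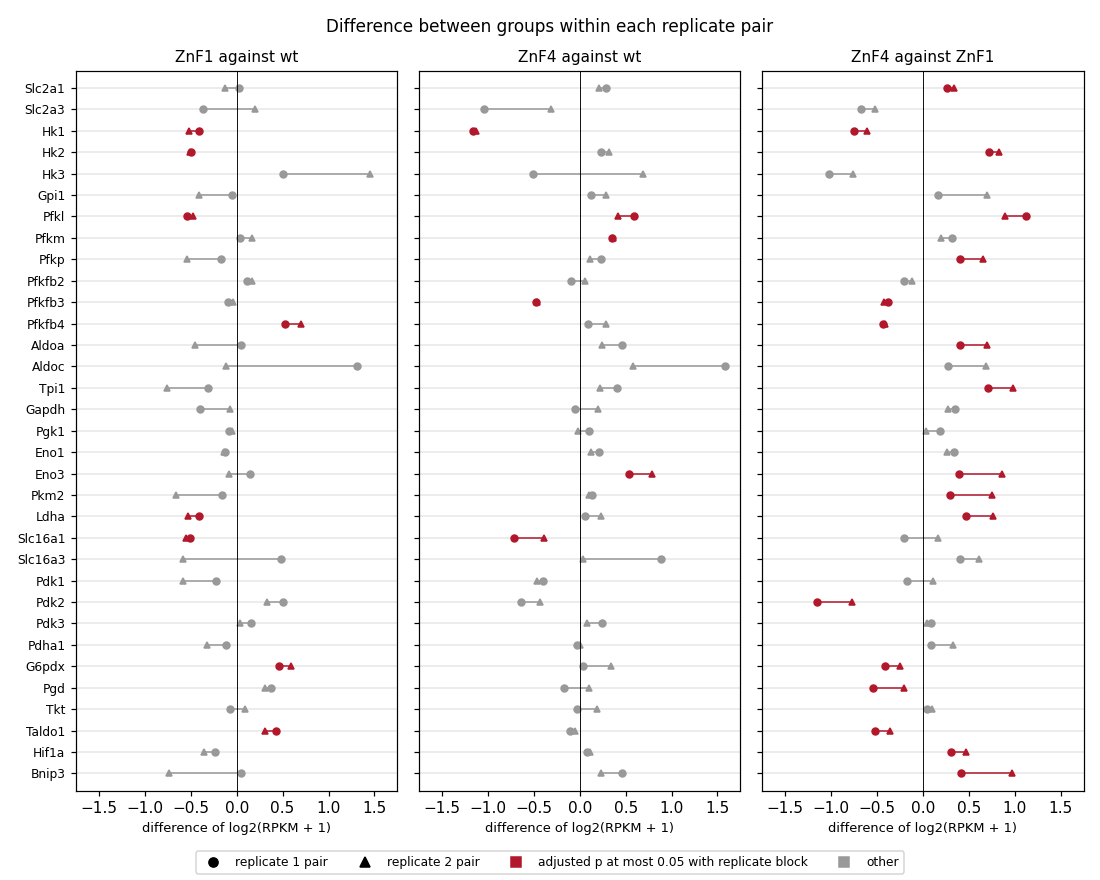
Difference of log2(RPKM + 1) between groups within the replicate 1 pair (circle) and the replicate 2 pair (triangle) for the 33 tested members in the 3 comparisons. Red marks an adjusted p of at most 0.05 with the replicate block, which 8, 6 and 18 members reached. Hk1 in ZnF4-/- against wt lies at −1.17 and −1.13.

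Hexokinases, which phosphorylate glucose on entry, differed in make-up between the groups. Hk1, the widely expressed form, stood at 42.3 and 34.4 RPKM in wt, 31.5 and 23.7 in ZnF1-/- and 18.3 and 15.2 in ZnF4-/-. The 3 groups did not overlap, wt being highest and ZnF4-/- lowest. In ZnF4-/- against wt the log2 fold change was −1.15 (SE 0.22, limma adjusted p = 0.074), nearly the same within the replicate 1 pair (−1.17) and the replicate 2 pair (−1.13). With the block the adjusted p was 0.0015, and it stayed at 0.0104 to 0.0327 when each of the 6 libraries was left out in turn. Without the block the call was made after rescaling by median ratios (adjusted p = 0.0382) or quantiles (adjusted p = 0.0311), and not on the deposited scale. Hk1 was also lower in ZnF1-/- than in wt (−0.47, adjusted p = 0.57, or 0.022 with the block) and lower in ZnF4-/- than in ZnF1-/- (−0.68, adjusted p = 0.16, or 0.0039 with the block). Hk2, the form induced by growth signals, stood at 12.4 and 14.8 RPKM in wt, 8.5 and 10.1 in ZnF1-/- and 14.7 and 18.7 in ZnF4-/-. ZnF1-/- lay below both other groups, by −0.5 against wt (adjusted p = 0.43, or 0.018 with the block). Hk2 differed between the mutants by 0.78 (ZnF4 against ZnF1, adjusted p = 0.1, or 0.0027 with the block, and 0.0135 to 0.0362 with the block and each library left out in turn). Hk3, a form of myeloid cells, stood at 4 and 1.6 RPKM in wt, 6.1 and 6.1 in ZnF1-/- and 2.5 and 3.2 in ZnF4-/-. It was highest in ZnF1-/-, the group with most macrophage transcripts, and passed in no comparison.

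The share of Hk1 in hexokinase RPKM was 72.1% and 67.7% in wt, 68.3% and 59.4% in ZnF1-/- and 51.5% and 41% in ZnF4-/-. That of Hk2 was 21.1% and 29.1%, 18.4% and 25.3%, and 41.4% and 50.4% in the same order. Hk1 led in 5 libraries, and Hk2 in ZnF4-/- replicate 2. The summed RPKM of the 3 genes was 58.7 and 50.8 in wt, 46.1 and 39.9 in ZnF1-/- and 35.5 and 37.1 in ZnF4-/-. The shares and sums are a description and were not tested.

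Of the phosphofructokinases, the committed step of glycolysis, Pfkl was below wt in one mutant and above it in the other. The liver-type subunit Pfkl stood at 37.6 and 35 RPKM in wt, 25.5 and 24.8 in ZnF1-/- and 56.9 and 46.9 in ZnF4-/-. The 3 groups did not overlap. Pfkl was the single member past the threshold without the block: ZnF4-/- against ZnF1-/- differed by 1.01 (SE 0.16, adjusted p = 0.033, or 0.0021 with the block). Without the block no fit with 1 of the 6 libraries removed made the call (adjusted p = 0.0728 to 0.183), in fits that have fewer residual degrees of freedom. With the block it was kept in all 6 such fits (0.00967 to 0.0269). Against wt, Pfkl differed by −0.51 in ZnF1-/- and 0.5 in ZnF4-/- (adjusted p = 0.28 for each, and 0.024 and 0.02 with the block). The platelet-type Pfkp stood at 20.7 and 29.1 RPKM in wt, 18.2 and 19.7 in ZnF1-/- and 24.5 and 31.5 in ZnF4-/-, a difference between the mutants of 0.53 (adjusted p = 0.3, or 0.019 with the block). The muscle-type Pfkm stood at 8.1 and 7.1 RPKM in wt, 8.3 and 8.1 in ZnF1-/- and 10.6 and 9.4 in ZnF4-/-, and its log2 fold change in ZnF4-/- against wt was 0.36 (adjusted p = 0.5, or 0.043 with the block). Summed phosphofructokinase RPKM was 66.4 and 71.2 in wt, 52 and 52.6 in ZnF1-/- and 92 and 87.8 in ZnF4-/-, so the order of the groups was that of Pfkl.

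**Figure D4:**
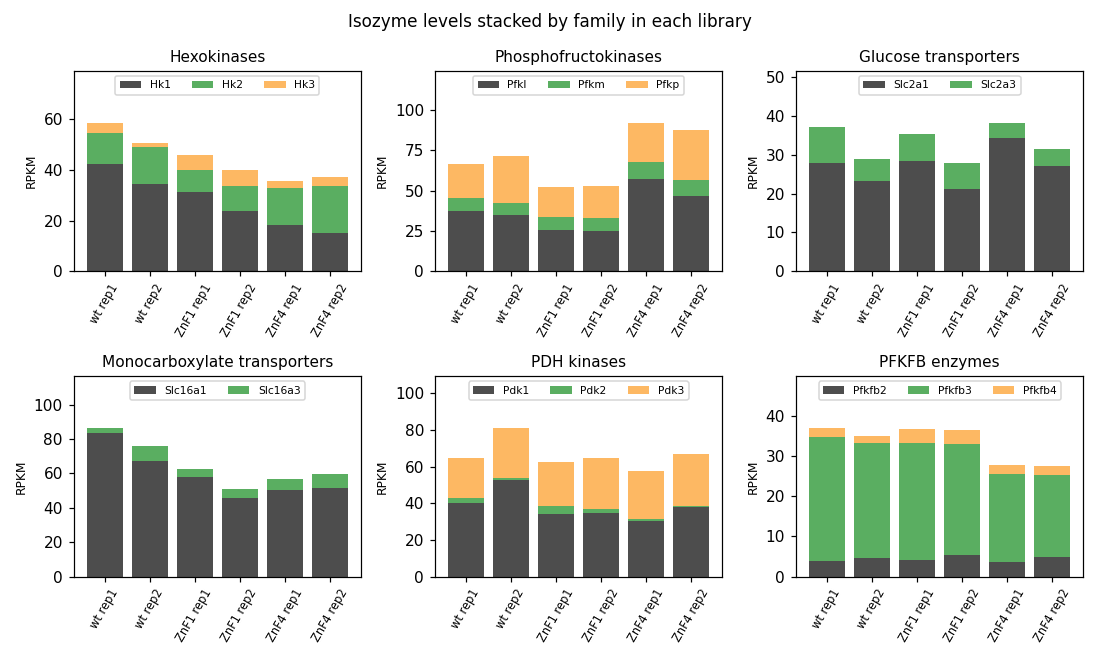
Stacked RPKM of the listed isozymes of 6 families (vertical axes, RPKM) in the 6 libraries. Hexokinase bars are tallest in wt, and Hk2 makes up 41.4% and 50.4% of them in ZnF4-/- against at most 29.1% elsewhere, and phosphofructokinase bars run from 52 RPKM in ZnF1-/- to 92 in ZnF4-/-.

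The PFKFB enzymes, which make and break the activator of phosphofructokinase, included 1 member, Pfkfb3, that was lower in ZnF4-/-, where Pfkl was higher. Pfkfb3 stood at 30.9 and 28.5 RPKM in wt, 28.9 and 27.7 in ZnF1-/- and 21.9 and 20.4 in ZnF4-/-. ZnF4-/- lay below all 4 other libraries, by −0.47 against wt (adjusted p = 0.24, or 0.012 with the block) and −0.4 against ZnF1-/- (adjusted p = 0.21, or 0.012 with the block). Pfkfb4 stood at 2.2 and 1.7 RPKM in wt, 3.6 and 3.4 in ZnF1-/- and 2.4 and 2.3 in ZnF4-/-. It was highest in ZnF1-/-, by 0.61 against wt (adjusted p = 0.19, or 0.025 with the block). Pfkfb2 ranged from 3.5 to 5.3 RPKM with overlapping groups.

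Of the glucose transporters, Slc2a1, the main carrier of dividing cells, stood at 27.9 and 23.3 RPKM in wt, 28.4 and 21.2 in ZnF1-/- and 34.2 and 27.1 in ZnF4-/-. The groups overlapped. Within replicate pairs ZnF4-/- was higher than ZnF1-/- by 0.26 and 0.34 (adjusted p = 0.58, or 0.034 with the block), and higher than wt by 0.28 and 0.21 (adjusted p = 0.98, or 0.092 with the block). Slc2a3, a high-affinity carrier, stood at 9.3 and 5.6 RPKM in wt, 7 and 6.6 in ZnF1-/- and 4 and 4.3 in ZnF4-/-. It was lowest in ZnF4-/- and passed in no comparison. The share of Slc2a1 in the RPKM of this pair of genes was 89.5% and 86.3% in ZnF4-/- and 75% to 80.6% in the other libraries.

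Among the enzymes between phosphofructokinase and pyruvate, the triose isomerase gene Tpi1 stood at 93.9 and 107.3 RPKM in wt, 75.5 and 62.8 in ZnF1-/- and 124.5 and 125.4 in ZnF4-/-. The 3 groups did not overlap, and the mutants differed by 0.85 (adjusted p = 0.057, or 0.0078 with the block). Against wt neither mutant passed (−0.54 and 0.31, with the block adjusted p = 0.0504 and 0.16). Eno3, the muscle enolase, stood at 4.8 and 4.4 RPKM in wt, 5.4 and 4.1 in ZnF1-/- and 7.4 and 8.3 in ZnF4-/-, where it was higher than in wt by 0.66 (adjusted p = 0.19, or 0.031 with the block). Pkm2, pyruvate kinase, stood at 150.7 and 116.6 RPKM in wt, 134.8 and 73.4 in ZnF1-/- and 165.9 and 124.6 in ZnF4-/-. Groups overlapped, and within pairs ZnF4-/- exceeded ZnF1-/- by 0.3 and 0.76 (adjusted p = 0.52, or 0.041 with the block).

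Aldoa stood at 407.2 and 160.4 RPKM in wt, 421.4 and 117.1 in ZnF1-/- and 558.4 and 190.5 in ZnF4-/-, so its replicates differed more than its groups. The mutants differed by 0.55 (adjusted p = 0.84, or 0.031 with the block), a value of −0.37 without ZnF1-/- replicate 2 and −0.22 without ZnF4-/- replicate 1 where the block is not used. Aldoc, the brain form, stood at 5.7 and 11.9 RPKM in wt, 15.6 and 10.9 in ZnF1-/- and 19.1 and 18.2 in ZnF4-/-. Its log2 fold change of 1.08 in ZnF4-/- against wt did not pass (adjusted p = 0.29, or 0.097 with the block), and it was 1.58 in the replicate 1 pair and 0.57 in the replicate 2 pair. Gpi1, the isomerase after hexokinase, ranged from 29.1 to 67.3 RPKM with overlapping groups and passed in no comparison.

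Ldha and Slc16a1 were lower in ZnF1-/- than in wt with the block, and only Slc16a1 in ZnF4-/-. Ldha, which makes lactate from pyruvate, stood at 324.8 and 200.6 RPKM in wt, 243.8 and 138.6 in ZnF1-/- and 337.2 and 236.4 in ZnF4-/-. The replicates of each group lay far apart, and within pairs ZnF1-/- was below wt by −0.41 and −0.53 (adjusted p = 1, or 0.041 with the block). Without ZnF1-/- replicate 2 and wt replicate 1, the libraries with most granulocyte transcripts, the difference was 0.28. That fit sets ZnF1-/- replicate 1 against wt replicate 2, so granulocyte content and replicate number cannot be told apart. With the higher of its 2 RefSeq rows alone, that of 1824 bases, the value was −0.39 (adjusted p = 0.0779 with the block). ZnF4-/- exceeded ZnF1-/- by 0.62 (adjusted p = 0.51, or 0.011 with the block). Slc16a1, the lactate and pyruvate carrier MCT1, stood at 83.4 and 67.5 RPKM in wt, 58.1 and 45.6 in ZnF1-/- and 50.3 and 51.4 in ZnF4-/-. All 4 mutant libraries lay below both wt libraries, by −0.53 and −0.55 (adjusted p = 0.37 for ZnF1-/- and 0.33 for ZnF4-/-, which the block lowered to 0.041 and 0.034), and the mutants differed by −0.02 from each other (SE 0.2). Slc16a3, the exporter MCT4, ranged from 3 to 8.5 RPKM and passed in no comparison.

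Upstream bases are given for 4 of the members called with the block, Hk1, Hk2, Pfkl and Slc16a1. The calls of Slc16a1 were not kept with each library left out in turn, and other called members, Tpi1 among them, are not printed. The bases run from 250 before the RefSeq start to the base before it, 5′ to 3′ in the direction of the gene, in mouse build GRCm38.p6. The Hk1 start lies 121 bases from that of the matched GENCODE transcript, the others within 4. Capitals mark the cores ACGTG and GCGTG bound by HIF1, the E-box CACGTG bound by MYC, which holds ACGTG, and their reverse complements.
Hk1, chr10:62340422-62340671, minus strand: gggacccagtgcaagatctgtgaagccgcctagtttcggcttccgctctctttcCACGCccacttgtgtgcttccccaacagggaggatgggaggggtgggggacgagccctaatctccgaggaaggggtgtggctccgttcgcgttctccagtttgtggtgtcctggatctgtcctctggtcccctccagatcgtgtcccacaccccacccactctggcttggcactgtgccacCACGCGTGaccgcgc
Hk2, chr6:82774455-82774704, minus strand: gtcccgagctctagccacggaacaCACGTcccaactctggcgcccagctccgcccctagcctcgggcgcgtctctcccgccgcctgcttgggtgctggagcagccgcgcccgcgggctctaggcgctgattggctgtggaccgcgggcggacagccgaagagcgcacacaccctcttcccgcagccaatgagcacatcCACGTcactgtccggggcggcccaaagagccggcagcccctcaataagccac
Pfkl, chr10:78009808-78010057, minus strand: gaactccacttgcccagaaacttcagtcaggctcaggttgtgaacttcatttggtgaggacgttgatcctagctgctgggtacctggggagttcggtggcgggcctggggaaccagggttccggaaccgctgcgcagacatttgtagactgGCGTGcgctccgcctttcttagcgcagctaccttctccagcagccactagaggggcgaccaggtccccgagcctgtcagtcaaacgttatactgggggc
Slc16a1, chr3:104638414-104638663, plus strand: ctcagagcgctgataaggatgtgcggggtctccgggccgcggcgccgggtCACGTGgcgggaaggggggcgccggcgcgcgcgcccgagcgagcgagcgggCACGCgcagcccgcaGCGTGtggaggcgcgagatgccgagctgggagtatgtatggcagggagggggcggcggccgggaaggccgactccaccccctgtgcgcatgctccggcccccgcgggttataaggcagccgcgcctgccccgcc
The Ikaros core TGGGAA was searched on both strands and is in none of these 4 windows. Of the 36 genes, 35 matched the table (Pkm2 under Pkm), with 52 windows of 300 bases, which reach 50 bases past the start. A HIF1 core lay in 42 of the 52 windows (80.8%), against 62.2% of the 10218 windows of tested genes and 43.8% of all 32851. The E-box lay in 8 (15.4%, against 10.2% and 7.2%) and the Ikaros core in 10 (19.2%, against 23% and 25.6%). Median GC content was 60.8% in the members' windows and 60.7% in those of tested genes. The window of Tpi1, whose bases are not printed, held no HIF1 core. These matches describe letters and no binding was measured.

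At the mitochondrial gate, Pdk1, a kinase that inhibits pyruvate dehydrogenase, stood at 40.2 and 52.6 RPKM in wt, 34.2 and 34.8 in ZnF1-/- and 30.3 and 37.7 in ZnF4-/-. All 4 mutant libraries were below wt, by −0.41 and −0.43 (with the block adjusted p = 0.071 and 0.055), which misses the threshold. Pdk2 stood at 2.6 and 1.3 RPKM in wt, 4.1 and 1.9 in ZnF1-/- and 1.3 and 0.7 in ZnF4-/-. The mutants did not overlap and differed by −0.96 (adjusted p = 0.25, or 0.0068 with the block). Pdk3 ranged from 21.7 to 28.6 RPKM and Pdha1, the catalytic subunit that these kinases target, from 53 to 67.4, with no call in any comparison. The share of Pdk1 in the summed RPKM of Pdk1, Pdk2 and Pdk3 was 62.3% and 64.9% in wt and 52.8% to 56.3% in the mutants. Pdk4, which is outside the list and not counted in that share, stood at 0.4 to 3.5 RPKM.

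G6pdx, Pgd and Taldo1 of the pentose phosphate pathway had their highest values in ZnF1-/- replicate 1, and Tkt did not. G6pdx, the NADPH-making entry enzyme, stood at 20.6 and 14.9 RPKM in wt, 28.6 and 22.9 in ZnF1-/- and 21.2 and 19.1 in ZnF4-/-. ZnF1-/- lay above all 4 other libraries, by 0.52 against wt (adjusted p = 0.48, or 0.029 with the block). From ZnF1-/- to ZnF4-/- the difference of G6pdx was −0.33 (with the block adjusted p = 0.048). Pgd, the next dehydrogenase, stood at 86.5 and 66.7 RPKM in wt, 112.3 and 82.5 in ZnF1-/- and 76.5 and 71.5 in ZnF4-/-, and differed by −0.38 between the mutants (ZnF4 against ZnF1, with the block adjusted p = 0.045). Taldo1, transaldolase, stood at 94.2 and 71.5 RPKM in wt, 126.7 and 88.7 in ZnF1-/- and 87.7 and 68.8 in ZnF4-/-. Within pairs ZnF1-/- exceeded wt by 0.42 and 0.31 (adjusted p = 0.93, or 0.041 with the block), and the mutants differed by −0.44 (with the block adjusted p = 0.013). Tkt, transketolase, at 237.1 to 391.7 RPKM, differed from wt by 0 and 0.08 and passed in no comparison. Macrophage markers summed to 961.9 and 1032.8 RPKM in ZnF1-/- against at most 386.9 elsewhere. Within both replicate pairs G6pdx, Pgd and Taldo1 were higher in ZnF1-/- than in wt. Across replicate numbers G6pdx in ZnF1-/- stayed above all other libraries, and Pgd and Taldo1 in ZnF1-/- replicate 2 lay below wt replicate 1. The part of macrophages in these values was not tested.

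Hif1a, the oxygen-regulated activator of many of these genes, stood at 31.8 and 41.8 RPKM in wt, 26.9 and 32.4 in ZnF1-/- and 33.6 and 45.2 in ZnF4-/-. The mutants differed by 0.39 (adjusted p = 0.48, or 0.017 with the block). Bnip3, a mitophagy receptor and HIF1 target, stood at 2.2 and 3.5 RPKM in wt, 2.3 and 1.7 in ZnF1-/- and 3.4 and 4.3 in ZnF4-/-, and differed by 0.69 between the mutants (adjusted p = 0.19, or 0.04995 with the block). Bnip3 lies at the threshold and shares 71.5% of its windows with other genes.

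Related genes outside the list were read from lists of their pathways. Over all genes limma called 0% in ZnF1-/- against wt, 2.72% in ZnF4-/- against wt and 5.37% in ZnF4-/- against ZnF1-/-. Without ZnF4-/- replicate 1 it called 0 genes in both ZnF4-/- comparisons, so the calls without the block in these lists were lost there. With the block the shares higher and lower were 10.4% and 2.88%, 8.02% and 7.92%, and 15.9% and 19.2% of all genes in the same order. At an unadjusted p of 0.05 without the block they were 9.17% and 2.12%, 5.92% and 5.79%, and 6.84% and 12.5%. Of 13 other glycolysis and lactate genes tested, 1 rose in ZnF4-/- against wt, or 1 rose and 1 fell, Slc2a6, with the block. The gene that rose was Emb, embigin, an accessory protein that carries lactate transporters to the membrane, at 9.8 and 9.8 RPKM in wt, 27.6 and 29.3 in ZnF1-/- and 42.1 and 44.2 in ZnF4-/-. Both mutants lay above wt, by 1.45 (adjusted p = 0.092, or 0.0041 with the block) and 2.03 (adjusted p = 0.0067). The other accessory protein, Bsg, stood at 146.8 and 100.2 RPKM in wt, 172.1 and 102.1 in ZnF1-/- and 156.3 and 103.6 in ZnF4-/-. Slc2a6, a transporter at lysosomes, stood at 4.8 and 2 RPKM in wt, 12.3 and 4.6 in ZnF1-/- and 0.9 and 0.6 in ZnF4-/-. The mutants differed by −2.31 (adjusted p = 0.07, or 0.0037 with the block). Slc2a6 was highest in ZnF1-/- replicate 1, of the group with most macrophage transcripts, whose part was not tested. With the block, in ZnF1-/- against wt, Slc16a7, a carrier for pyruvate, and Pgam2, the muscle mutase, were higher (0.65 and 0.63), and Pgm2, a phosphoglucomutase, was lower (−0.53).

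Among 10 genes of pyruvate entry, Pdp1, the phosphatase that reactivates pyruvate dehydrogenase against the PDK kinases, stood at 4.6 and 4.8 RPKM in wt, 4.2 and 4.3 in ZnF1-/- and 7.9 and 8.3 in ZnF4-/-. It was higher in ZnF4-/- than in ZnF1-/- by 0.79 (adjusted p = 0.043) and than in wt by 0.68 (adjusted p = 0.098, or 0.0067 with the block). No other gene of this list passed without the block, and with it Pdk4 was lower in ZnF4-/- than in ZnF1-/- (−1.05). Of 17 tested genes of the tricarboxylic acid cycle limma called 0 in any comparison, 0 also at an unadjusted p of 0.05, and with the block 1, Fh1, in ZnF4-/- against ZnF1-/- (0.36). Of 7 other pentose phosphate genes limma called 0. At an unadjusted p of 0.05 it called 0 in ZnF1-/- against wt, 1 lower in ZnF4-/- against wt and 1 higher against ZnF1-/-. With the block Rpia, which makes ribose 5-phosphate, was lower in ZnF1-/- than in wt (−0.43). H6pd, Prps2 and Pgls were lower in ZnF4-/- than in wt with the block (−0.42, −0.43 and −0.49, adjusted p = 0.033, 0.033 and 0.038). The groups overlapped for H6pd and Pgls and did not for Prps2.

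Of 20 other hypoxia targets, Ndrg1 rose in ZnF4-/-. It stood at 3.6 and 4 RPKM in wt, 1.9 and 1.9 in ZnF1-/- and 52.6 and 36.5 in ZnF4-/-, a log2 fold change against wt of 3.23 (adjusted p = 0.0067). No other target on the list passed without the block, and with it 1 rose and 1 fell against wt. The one that fell was Plod2, from 4.5 and 8.8 RPKM to 0.6 and 1.7 (adjusted p = 0.091, or 0.0078 with the block). Between the mutants the block called 7 targets higher in ZnF4-/- and 4 lower, beside 15.9% and 19.2% of all genes. Ankrd37 (1.05) was among the higher, and Adm (−1.01) and Ddit4 (−0.42) among the lower. Adm stood at 0.8 and 0.9 RPKM in wt, 3.4 and 2 in ZnF1-/- and 0.7 and 0.9 in ZnF4-/-. In ZnF1-/- against wt the block called 1 target higher, Adm, and 0 lower, beside 10.4% and 2.88% of all genes. The log2 fold change of Adm there was 0.97 (adjusted p = 0.15, or 0.041 with the block). Vegfa stood at 63.6 and 57 RPKM in wt, 71.6 and 68.5 in ZnF1-/- and 85.1 and 64.3 in ZnF4-/-. The median over the 20 targets was −0.21 in ZnF1-/- against wt (6 above 0 and 14 below), against −0.01 over all genes, and 0.09 in ZnF4-/- against wt, against 0.04 over all genes. Of 7 genes of the HIF pathway itself limma called 0. At an unadjusted p of 0.05, 1 was higher and 1 lower in ZnF1-/- against wt. In ZnF4-/- 1 was higher against wt and 1 against ZnF1-/-. Egln1, an oxygen sensor, was higher in ZnF4-/- than in ZnF1-/- with the block (0.39).

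Of 15 regulators of glucose and energy use, Mtor, the growth kinase, fell in ZnF4-/-. It stood at 48.2 and 42.9 RPKM in wt, 62.4 and 61.2 in ZnF1-/- and 16.9 and 17.1 in ZnF4-/-, −1.37 against wt (adjusted p = 0.019) and −1.8 against ZnF1-/- (adjusted p = 0.011). Prkaa2, a catalytic subunit of the energy sensor AMPK, stood at 7.2 and 8.4 RPKM in wt, 4.7 and 5.4 in ZnF1-/- and 11.3 and 13.8 in ZnF4-/-, with a difference between the mutants of 1.16 (adjusted p = 0.032). Cnr2, a cannabinoid receptor of B cells, stood at 2.4 and 1.9 RPKM in wt, 7.2 and 7 in ZnF1-/- and 0.9 and 0.8 in ZnF4-/-. The mutants differed by −2.13 (adjusted p = 0.0097). Cnr2 was highest in ZnF1-/-, the group with most macrophage transcripts, whose part was not tested. With the block Arrdc4, an arrestin kin to Txnip, was higher in ZnF1-/- than in wt (1.09), and Nr3c1, the glucocorticoid receptor, was lower in ZnF4-/- than in wt (−0.48). Txnip, which restrains glucose uptake, stood at 62.4 and 71.8 RPKM in wt, 81.5 and 63.3 in ZnF1-/- and 53.6 and 48.4 in ZnF4-/- and passed in no comparison. Myc, an activator of many glycolytic genes, stood at 217.4 and 166.7 RPKM in wt, 151 and 183.8 in ZnF1-/- and 290 and 234.5 in ZnF4-/-, with a difference between the mutants of 0.64 (adjusted p = 0.21, or 0.044 with the block).

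Of 10 tested genes of glycogen use and gluconeogenesis, Pygl, glycogen phosphorylase, stood at 4.8 and 4.8 RPKM in wt, 9.8 and 19.1 in ZnF1-/- and 2.5 and 3.2 in ZnF4-/- (−1.94 between the mutants, adjusted p = 0.035). It was highest in ZnF1-/- replicate 2, the library with most granulocyte transcripts. Both ZnF1-/- libraries lay above all others, as did their macrophage marker sums (961.9 and 1032.8 RPKM, against 321.2 to 386.9). Granulocyte markers summed to 531.7 and 0.5 RPKM in wt, 1.8 and 1625.9 in ZnF1-/- and 6.3 and 53.9 in ZnF4-/-. The part of granulocytes and of macrophages in the Pygl values was not tested. With the block, Pck2 was lower in ZnF1-/- than in wt (−0.49), and Pygm was higher in ZnF4-/- than in ZnF1-/- (1.05). Of 10 genes of NADPH and the NRF2 response limma called 0 without the block. At an unadjusted p of 0.05, 2 were higher in ZnF1-/- than in wt and 2 lower in ZnF4-/- than in ZnF1-/-. In ZnF4-/- against wt 0 reached that level. With the block, 3 were higher in ZnF1-/- than in wt, beside 10.4% of all genes: Srxn1 (1.28), Hmox1 (1.65) and Idh1 (0.65). Idh1 was also higher in ZnF4-/- than in wt with the block (0.57, adjusted p = 0.013). Nfe2l2, the NRF2 gene itself, was lower in ZnF4-/- than in ZnF1-/- (−0.55). Hmox1, which breaks down haem, stood at 162.7 and 42.6 RPKM in ZnF1-/-, 42.8 and 15.6 in wt and 31.6 and 23.8 in ZnF4-/-. Macrophage marker sums in the same order were 961.9 and 1032.8, 321.2 and 386.9, and 334.5 and 371.7 RPKM. The part of macrophages in the Hmox1 values was not tested.

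**Figure D5:**
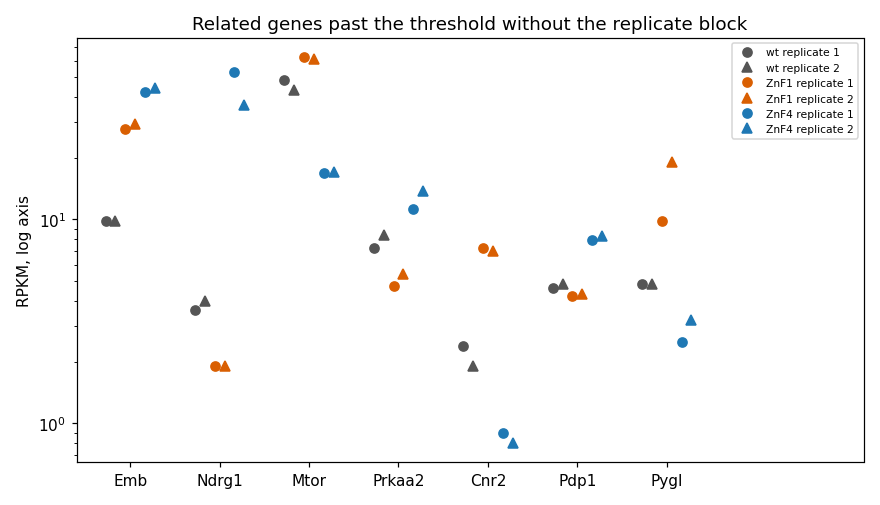
RPKM (log axis) in the 6 libraries for the 7 genes of the related pathway lists that passed the threshold without the block in at least 1 comparison. Emb lies near 10 RPKM in wt and above 40 in ZnF4-/-, and Mtor at about 17 RPKM in ZnF4-/- against more than 42 elsewhere.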

How the data were processed

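PolyA RNA of 6 cultures was sequenced. The authors deposited RPKM values for 26531 RefSeq transcripts, per the file headers, rounded to 1 decimal. According to the submitters' processing notes, TopHat, the build mm9 and bedtools were used, with no version named. The sources used here do not describe the treatment of shared reads or of strand, and rounding hides the depth, so there is no counting interval. Of 40 symbols turned into numbers, 39 were restored, and 1 row without a gene was left out. Rows were summed per symbol. Genes reaching 1 RPKM in 2 or more libraries entered limma 3.58.1 (R 4.3.3) on log2(RPKM + 1), with an intensity trend, 3 group means, Benjamini-Hochberg adjustment over all tested genes and a threshold of 0.05. There were 3 residual and 2.32 prior degrees of freedom, and 2 and 3.06 with the block. Fold changes on this scale understate low genes. Alternatives were other pseudocounts, filters and scalings, other row choices, the block, and each library left out.

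The labels number replicates 1 and 2. Library deviations from group means, taken across genes, correlated between equal numbers at 0.5 (wt and ZnF1-/-), 0.754 (wt and ZnF4-/-) and 0.715 (ZnF1-/- and ZnF4-/-). With 2 replicates this is a hint from the data, and block values stand beside results whose call they change. Members and lists were chosen with earlier results of these data known. Values per library are given for members past the threshold with or without the block, or with a log2 fold change of at least 1. In other lists the genes named are those called and up to 4 more per comparison called with the block, and 1 gene that this rule names is not reported here. The remaining members and Bsg, Txnip, Vegfa and Myc were added after their values were seen. Shared windows of 36 bases and BLAST matches used GENCODE M21 transcripts, and promoters are from RefSeq.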

Additional observations from a re-analysis of the deposited data

How the results depend on the processing

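With the replicate block, 1502, 1809 and 3979 genes were called in ZnF1-/- against wt, ZnF4-/- against wt and ZnF4-/- against ZnF1-/- (0, 309 and 609 without it), and 8, 6 and 18 members (0, 0 and 1 without it). Combined with the block, settings chosen after seeing the data gave in the same order 1610, 1875 and 4057 genes and 9, 7 and 18 members with median ratio rescaling. Quantile normalization gave 1443, 1760 and 4352 genes and 8, 6 and 20 members, and the highest row per symbol 1471, 1782 and 3944 genes and 7, 6 and 17 members. With the block and 1 library left out (in the order wt 1, wt 2, ZnF1-/- 1, ZnF1-/- 2, ZnF4-/- 1, ZnF4-/- 2), the genes and members called in ZnF1-/- against wt were 189, 0, 0, 414, 689 and 694 and 1, 0, 0, 0, 1 and 1. In ZnF4-/- against wt they were 415, 400, 1764, 1762, 435 and 534 and 1, 3, 6, 6, 1 and 1, and in ZnF4-/- against ZnF1-/- 2394, 2383, 2792, 2443, 1200 and 1193 and 10, 10, 16, 7, 5 and 4, all in fits with 1 residual degree of freedom that take the lone library to vary like the other groups. Without the block, leaving out 1 library gave 0 to 88 genes in ZnF4-/- against wt, and 0 to 262 genes and 0 members in ZnF4-/- against ZnF1-/-. The members' medians then ran from −0.22 to 0.03, −0.07 to 0.21 and 0.01 to 0.33, where the block gave −0.14 to −0.03, 0.05 to 0.2 and 0.15 to 0.26. A minimum of 5 RPKM left 176 and 323 genes called in the comparisons of ZnF4-/- with wt and with ZnF1-/-, and fits of only the 4 libraries compared left 86 and 234 genes and, against ZnF1-/-, 0 members. Median ratio rescaling and quantile normalization each called 1 member, Hk1, in ZnF4-/- against wt. Without the 2 libraries with most granulocyte transcripts, 0 genes were called in both ZnF4-/- comparisons and 0 members against ZnF1-/-, and the medians were 0.2 (ZnF1-/- against wt) and 0.01 (ZnF4-/- against ZnF1-/-). In those libraries' absence Ldha in ZnF1-/- against wt turned to 0.28, and Aldoa in ZnF4-/- against ZnF1-/- to −0.37. Aldoa was also −0.37 without ZnF1-/- replicate 2 and −0.22 without ZnF4-/- replicate 1, in a range of −0.37 to 1.47 with each library left out. In the fits with a changed sign the libraries compared differ in replicate number, and replicate 1 was the higher for both genes in every group. Granulocyte content and replicate number cannot be told apart there, and no cause was tested. The unknown depth and 2 libraries a group limit all values.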
